A study of Capra hircus with 13 samples.

Results

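Solute carriers are membrane proteins that move small molecules across the plasma membrane and across the membranes of organelles. The transcripts described here were the solute carriers detected in goat (Capra hircus) oocytes and early embryos. Members were all gene names beginning with SLC and a digit that were listed once in each of the 5 deposited tables, with a mean of at least 1 FPKM (fragments per kilobase of exon, scaled to the mapped fragments of the library, a level per length) over the 9 untreated libraries. Of 18138 gene names listed once in all 5 tables, 314 were SLC names and 133 were members. The members were thus chosen by their measured level in the untreated libraries, so their levels there are given as a description. Just inside the threshold lay SLC25A28 (mean 1.003 FPKM) and SLC7A5 (1.01 FPKM), and just outside it SLC35B2 (0.989 FPKM), SLC43A3 (0.973 FPKM) and SLC35B4 (0.959 FPKM).

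The untreated groups were in vitro matured MII oocytes, 4-cell embryos and 8-cell embryos made by in vitro fertilization (IVF), with 3 libraries each. The injected groups were 8-cell embryos that had received, as zygotes 8 h after IVF, either a negative control siRNA (NC siRNA) or siRNA against YTHDF2, with 2 libraries each and embryos pooled within a library. The siRNA against YTHDF2 was injected as a 20 µM solution, and the study states no concentration for the control. YTHDF2 is a reader protein of the RNA mark N6-methyladenosine that promotes decay of marked transcripts. All libraries were made by Smart-seq2 from poly(A) RNA. The untreated libraries came from earlier studies, the study of each library is not given, and batch and stage cannot be told apart. Nothing says that libraries of a group came from separate animals, so p-values measure the spread between these libraries, which may be technical.

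Solute carriers are grouped into families by sequence, and families largely follow what is carried. Cleavage embryos take up pyruvate and lactate in preference to glucose, use glycine and other amino acids to balance osmotic pressure, and keep zinc under tight control, since zinc is released from the mammalian oocyte at egg activation. SLC25 carriers sit in the inner mitochondrial membrane and pass nucleotides, cofactors and metabolic intermediates, while SLC35 carriers bring nucleotide sugars into the endoplasmic reticulum and Golgi for glycosylation.

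The siRNA mixture held 2 duplexes. Their antisense strands are shown because they define what the knockdown libraries received, with the seed (bases 2 to 8) in capitals.
siRNA 1: uUGCUAGCaauaucagcccaa
siRNA 2: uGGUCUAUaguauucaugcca
Both strands are 21 bases long and their seeds differ.

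Whole fragments could be recovered from the untreated values, and the genes listed in all tables held from about 22235600 (MII replicate 1) to 27581000 (8-cell replicate 3) fragments per library. The 133 members together took 0.695% to 1.14% of these, and the member with the fewest had 424 fragments over the 9 libraries. YTHDF2 itself was at 112 and 159 FPKM in the NC siRNA libraries and at 8.07 and 4.47 FPKM in the YTHDF2 siRNA libraries, so the targeted transcript was low where the labels say. Oocyte and embryo markers (10 of a list of 12 were measured, among them GDF9, BMP15, ZP2 and KPNA7) summed to 2050 to 5551 FPKM in every library, although NLRP5 and ZAR1 were at 0.200 to 8.70 FPKM. Cumulus and granulosa cell markers (11 of 12 measured) summed to 28.6 to 79.5 FPKM, led by HAS2, VCAN, TNFAIP6 and, in the injected libraries, also VIM, and the defining markers FSHR and AMH stayed at or below 0.39 FPKM. Of the same list CYP19A1 was at 0.292 to 0.531 FPKM in MII, 1.27 to 1.98 FPKM in 4-cell and 1.66 to 2.08 FPKM in 8-cell libraries, and COL1A2 reached 9.63 FPKM in the injected libraries. Sperm markers (6 of 10) summed to 3.76 to 32.2 FPKM, and blood markers (4 of 5) to at most 1.58 FPKM in the untreated and 10.9 FPKM in the NC siRNA libraries.

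One library stood apart. Among the members, log2(FPKM + 1) of 8-cell replicate 1 correlated with that of 8-cell replicates 2 and 3 at r = 0.734 and r = 0.810, against r = 0.957 between replicates 2 and 3 and 0.943 to 0.979 within the MII and 4-cell groups (across genes, which are not independent replicates). In 27 of the 133 members (20.3%) replicate 1 was over 3 times both other 8-cell libraries, against 12.8% of all 9074 genes tested at the stages. The nucleoside transporter SLC29A1 was the extreme case, at 206 FPKM in replicate 1 and 9.35 and 31.6 FPKM in the other two. SLC25A22, a mitochondrial glutamate carrier, was at 25.3, 0.616 and 1.18 FPKM, and SLC9A3R1, a scaffold protein that is not itself a transporter, at 62.8, 3.41 and 11.1 FPKM. Without this library 8 members fell below the 1 FPKM threshold, among them SLC38A7, SLC16A5, SLC6A11, SLC12A5, SLC25A39, SLC35A2 and SLC7A5. The 8-cell counts, and the calls this library changed, are therefore also given without it.

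**Figure D1:**
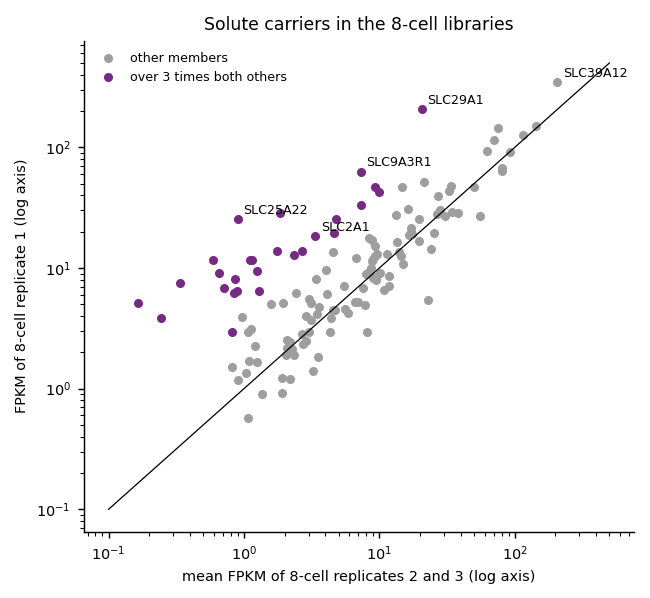
FPKM of each of the 133 solute carriers in 8-cell replicate 1 against the mean of 8-cell replicates 2 and 3, both on log axes, with the line of equal values. The 27 members coloured purple were over 3 times both other libraries, and SLC29A1 reached 206 FPKM in replicate 1.

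Mean levels of the members ran from 1.003 to 139 FPKM. Only 3 members averaged at least 100 FPKM over the untreated libraries, 43 averaged at least 10 FPKM, and 90 lay between 1 and 10 FPKM. The zinc importer SLC39A12 (ZIP12) was highest, with a mean of 139 FPKM. It was followed by the mitochondrial S-adenosylmethionine carrier SLC25A26 (110 FPKM), the mitochondrial NAD carrier SLC25A51 (105 FPKM), SLC35A5 (74.4 FPKM), whose substrate is unsettled, the UDP-sugar carrier SLC35D1 (73.5 FPKM) and the mitochondrial zinc exporter SLC30A9 (60.9 FPKM). The glycine transporter SLC6A5 (54.0 FPKM) and the serotonin transporter SLC6A4 (52.2 FPKM), both best known from neurons, came next. A mean of at least 1 FPKM was reached at every stage by 108 members and at 1 stage by 5.

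By substrate class, the summed FPKM in the untreated groups was largest for the 27 mitochondrial carriers and the 15 metal carriers. The metal carriers summed to 231 to 240 FPKM in the MII, 328 to 373 FPKM in the 4-cell and 476 to 610 FPKM in the 8-cell libraries, so the groups did not overlap on the deposited scale. Without SLC39A12 the other 14 summed to 163 to 177, 224 to 259 and 266 to 295 FPKM, so most of the step between the 4-cell and 8-cell means was this 1 gene. The 9 carriers of lipids, choline, organic ions and amines went from 42.0 to 55.9 FPKM through 111 to 129 FPKM to 158 to 230 FPKM, again without overlap. Without SLC6A4 the other 8 summed to 32.0 to 41.5, 65.3 to 78.2 and 84.7 to 87.0 FPKM. The 27 mitochondrial carriers went from 245 to 300 FPKM in MII to 382 to 416 FPKM in the 4-cell libraries, and their 8-cell range of 411 to 620 FPKM overlapped that of the 4-cell stage. The monocarboxylate class held only SLC16A1 and SLC16A11 and was the lowest, at 4.52 to 9.98 FPKM in the untreated libraries. These sums follow the deposited scale, and no test was made on them. Scaling every library to 1 sum of FPKM divided the MII libraries by 0.783 to 0.818 and the 4-cell libraries by 1.10 to 1.21. The gaps between MII and 4-cell sums were thus smaller on that scale, and their lack of overlap is stated for the deposited scale only. There the 4-cell median log2 fold change against MII was -0.09 for metal, 0.05 for mitochondrial and 0.19 for lipid, choline, organic ion and amine carriers after scaling to 1 sum.

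**Figure D2:**
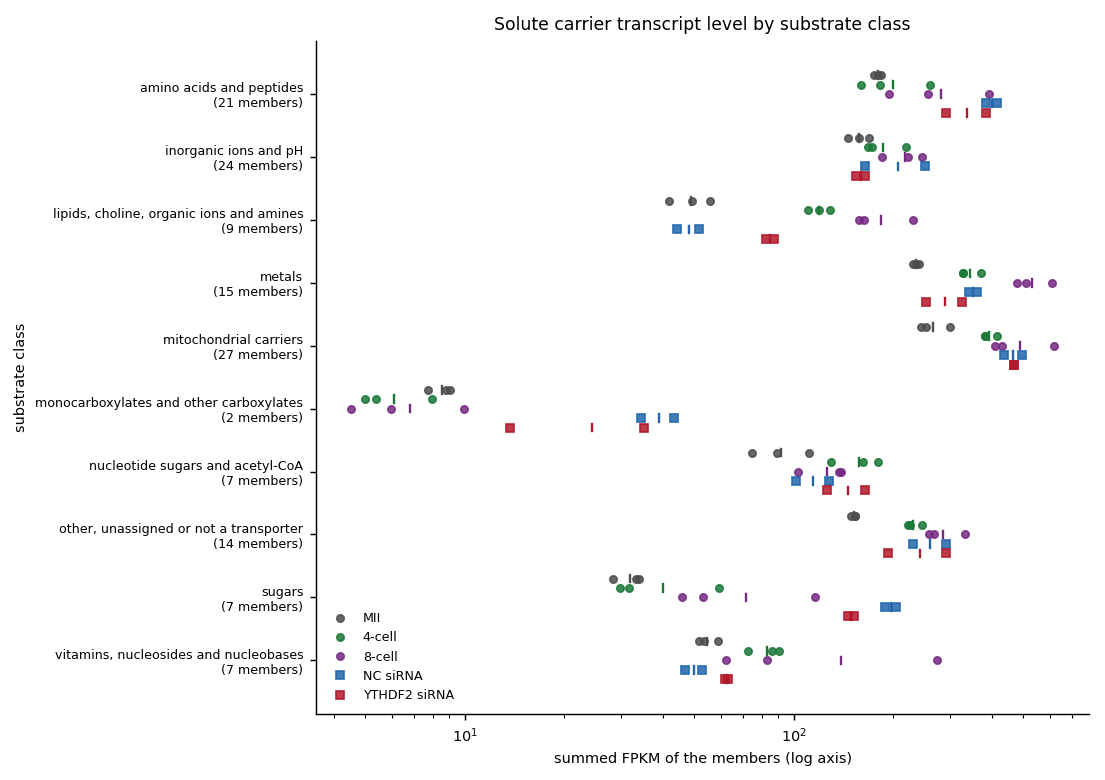
Summed FPKM of the members of each substrate class (log axis) in every library, with group means as ticks; circles are untreated and squares are injected libraries, which were normalized apart. On the deposited scale metal carriers and carriers of lipids, choline, organic ions and amines step up from MII to the 4-cell and 8-cell libraries. The highest vitamin and nucleoside point is 8-cell replicate 1.

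The stage comparisons were fitted with limma on log2(FPKM + 1) over 9074 genes, and a gene was called at a Benjamini-Hochberg adjusted p under 0.05 and more than 2-fold. At the 4-cell stage 16 of 133 members (12.0%) were called higher than in MII oocytes and 6 (4.51%) lower, against 15.4% and 5.1% of all genes tested. At the 8-cell stage 33 members (24.8%) were called higher than in MII oocytes and 4 (3.01%) lower, against 18.4% and 7.59% of all genes. Both comparisons use the same MII libraries. The members had a median log2 fold change of 0.39 for 4-cell and 0.64 for 8-cell embryos, where the medians of all genes were 0.28 and 0.37. On the deposited scale most genes thus lay above 0, and relative to the median of all genes the members' median was 0.11 and 0.28 higher.

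Scale and library both bore on these counts. With the values scaled to the fragments on shared genes, 3 members were called higher and 12 lower in 4-cell embryos, and 17 higher and 8 lower in 8-cell embryos, against 5.94% and 10.5%, and 9.22% and 13.1%, of all genes on that scale, while every member called as deposited kept its sign under each of the 4 other scalings tried. All 10 calls of a fall, 3 of the 16 rises in 4-cell and 17 of the 33 in 8-cell embryos were also called under each of them. The 3 in 4-cell embryos were SLC6A4, SLC25A36 and SLC46A3. The 4-cell rises of SLC25A26, SLC35A5, SLC30A9, SLC38A9, SLC30A1, SLC30A5, SLC25A16 and SLC35F5 were called under none of the 4. The same held for the 8-cell rises of SLC25A51, SLC35A5, SLC30A9, SLC38A9, SLC41A2, SLC8A1, SLC17A5, SLC9B2, SLC7A7, SLC35F5, SLC40A1 and SLC25A46. Without 8-cell replicate 1, 35 members were called higher and 12 lower at the 8-cell stage, against 18.8% and 9.76% of all genes in that fit, and the members' median exceeded that of all genes by 0.09. Of the 37 members called with it, 31 rises and 4 falls were still called. The 8-cell counts without it were 6 higher and 2 lower among metal carriers, 8 and 2 among mitochondrial carriers, 7 and 2 among amino acid carriers and 4 and 0 among ion carriers. They were 3 and 0 among carriers of lipids, choline, organic ions and amines, and 1 and 1 each among sugar and nucleotide sugar carriers. Monocarboxylate and vitamin carriers gave 0 and 1 each, and the remaining class 5 and 2. Fewer cells of a type and less RNA per cell cannot be told apart in such libraries. Summed cumulus markers were at 28.6 to 50.7, 33.3 to 48.4 and 51.6 to 71.9 FPKM in MII, 4-cell and 8-cell libraries, and summed sperm markers, nearly all of it ODF2, at 3.76 to 6.42, 9.32 to 16.0 and 8.13 to 21.7 FPKM. Their part in the results was not tested.

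Of 15 metal carriers, 7 were called higher at the 8-cell stage (2 to 3 under the other scalings) and 4 at the 4-cell stage (0 to 1), or 46.7% and 26.7% of the class against 18.4% and 15.4% of all genes. As deposited 1 was called lower at the 8-cell stage and none at the 4-cell stage, where each other scaling called 1 lower. SLC39A12 was at 63.5, 64.7 and 72.4 FPKM in MII, 74.0, 114 and 104 FPKM in the 4-cell and 345, 181 and 233 FPKM in the 8-cell libraries. Each 8-cell library lay above every earlier one, and the log2 fold change against MII was 1.85 (SE 0.25, limma with Benjamini-Hochberg, adjusted p = 0.000551), or 1.61 without 8-cell replicate 1. SLC30A1 (ZnT1), which exports zinc from the cell, went from 15.1 ± 1.74 to 33.8 ± 6.31 and 45.9 ± 18.3 FPKM (mean ± SD, n = 3 each) and was called higher at both stages. The 4-cell call was lost without MII replicate 2 or 3 or 4-cell replicate 1 (adjusted p = 0.0518 to 0.0692). SLC30A9 went from 31.4 ± 5.21 to 75.4 ± 7.57 FPKM in 4-cell embryos and stayed there, at 75.9 ± 7.64 FPKM (SD, n = 3). The Golgi zinc carrier SLC30A5 (log2 fold change 1.07, or 0.99 without 4-cell replicate 1, and 1.58) and the iron exporter SLC40A1 (1.35 and 1.03) were also called higher at both stages, the latter in 8-cell embryos only with 8-cell replicate 1, MII replicate 1 and MII replicate 3 all included (0.96, 0.88 and 0.99 without them).

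The metal carrier called lower at the 8-cell stage was SLC39A14 (ZIP14), an importer of zinc, iron and manganese. It was at 28.6, 25.4 and 29.3 FPKM in MII, 17.2, 15.9 and 10.3 FPKM in the 4-cell and 7.15, 6.39 and 4.63 FPKM in the 8-cell libraries. The 3 groups did not overlap, and the log2 fold change against MII was -2.04 at the 8-cell stage (SE 0.24, limma with Benjamini-Hochberg, adjusted p = 0.000269). The zinc importers SLC39A6 and SLC39A10, known from oocyte maturation, were not called at either stage (4-cell log2 fold changes -0.25 and 0.39, 8-cell 0.28 and 0.64). The copper importer SLC31A1 was at 3.37 to 9.22 FPKM in the untreated libraries.

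Among carriers of lipids, choline, organic ions and amines, 3 of 9 were called higher at each stage and none lower, while 1 to 3 and 2 were called higher under the other scalings. The 33.3% of the class stood against 15.4% and 18.4% of all genes. The serotonin transporter SLC6A4 was at 13.2, 14.4 and 9.94 FPKM in MII, 50.4, 54.0 and 33.3 FPKM in the 4-cell and 143, 71.5 and 79.4 FPKM in the 8-cell libraries. It rose at both stages, with log2 fold changes of 1.78 (SE 0.30) and 2.82 (SE 0.30), and remained at 2.51 without 8-cell replicate 1. SLC10A7, a Golgi protein of the bile acid transporter family, rose by 1.45 and 1.86 (log2). The organic cation exporter SLC47A1 was called at the 4-cell stage, where MII replicate 2 (9.27 FPKM) and 4-cell replicate 2 (9.32 FPKM) nearly met. Its adjusted p was 0.0766 to 0.108 when MII replicate 1 or 3 or 4-cell replicate 1 or 3 was left out. SLC17A5, the lysosomal sialic acid exporter, was called at the 8-cell stage (log2 fold change 1.28).

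Of the 7 sugar carriers, SLC2A3 (GLUT3), a high-affinity glucose transporter, had the largest rise of any member. It was at 1.34, 2.02 and 2.16 FPKM in MII, 4.10, 21.8 and 5.16 FPKM in the 4-cell and 51.3, 28.3 and 14.3 FPKM in the 8-cell libraries. The 8-cell libraries lay above all MII libraries, with a log2 fold change of 3.35 (SE 0.59, limma with Benjamini-Hochberg, adjusted p = 0.00204) and of 2.91 without 8-cell replicate 1. The 4-cell and 8-cell groups overlapped through 4-cell replicate 2, and the step between them was not called (log2 fold change 1.68, adjusted p = 0.114). SLC2A1 (GLUT1) was at 1.97 to 3.03 FPKM in MII and 2.29 to 18.3 FPKM at the 8-cell stage and was not called. The sodium-glucose cotransporter SLC5A1 (SGLT1) fell at the 4-cell stage from 14.9 ± 2.71 to 5.75 ± 0.695 FPKM (SD, n = 3, log2 fold change -1.22), and was at 10.4 ± 1.97 FPKM at the 8-cell stage. The inositol transporter SLC5A11, a member only through its MII level, fell at both stages (log2 fold changes -1.15 and -1.004), with adjusted p up to 0.0579 and 0.0847 when single MII, 4-cell or 8-cell libraries were left out (MII replicate 1 or 3 or 4-cell replicate 2 or 3 at the first, any MII library or 8-cell replicate 3 at the second). The lactate and pyruvate transporter SLC16A1 (MCT1) was at 3.49 to 7.38 FPKM in all untreated libraries and was not called, while the other member of its class, SLC16A11, was called lower at the 4-cell stage (4.13 ± 0.667 to 0.725 ± 0.140 FPKM, SD, n = 3). That call was lost, with adjusted p 0.0663 to 0.0995, on leaving out any MII or 4-cell library.

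**Figure D3:**
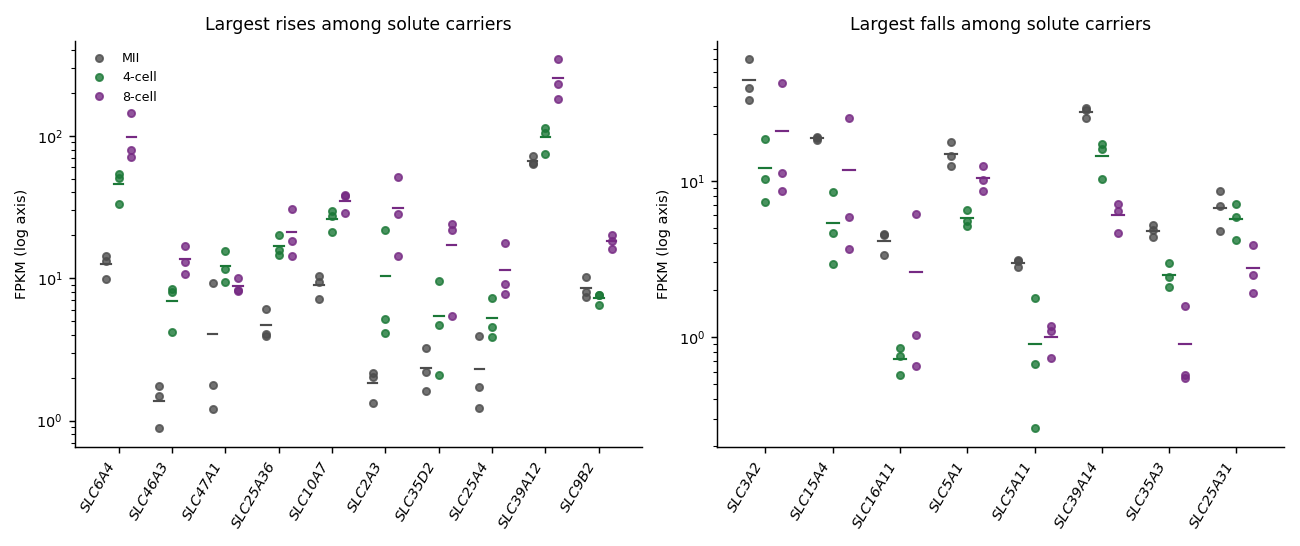
FPKM (log axis) of the members with the largest called rises (left) and falls (right) in any stage comparison, with each of the 3 libraries per stage as a point and the mean as a bar. SLC39A12 reaches 345 FPKM and SLC39A14 steps down through 3 groups that do not overlap.

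Of 21 amino acid and peptide carriers, 1 was called higher and 2 lower at the 4-cell stage (0 and 2 under the other scalings), and 5 higher and none lower at the 8-cell stage (2 to 3 and 1 to 2). The rises were 4.76% and 23.8% of the class, where all genes gave 15.4% and 18.4%. SLC6A5 was at 30.4, 32.5 and 24.2 FPKM in MII and 114, 54.3 and 87.1 FPKM in the 8-cell libraries, with a log2 fold change of 1.47 (SE 0.26), or 1.23 without 8-cell replicate 1. SLC38A9, a lysosomal arginine sensor upstream of mTORC1, went from 21.8 ± 1.89 to 46.1 ± 8.87 and 49.0 ± 6.74 FPKM (SD, n = 3) and was called higher at both stages. Its 4-cell log2 fold change of 1.03 was 0.94 to 0.96 without MII replicate 3, 4-cell replicate 2 or 4-cell replicate 3. SLC7A7, SLC38A2 (SNAT2) and SLC1A5 (ASCT2) were called higher at the 8-cell stage from MII means of 2.93, 0.474 and 0.414 FPKM to 8.57, 2.72 and 3.69 FPKM. The call of the glutamine transporter SLC1A5 was lost without MII replicate 1 or 3 (adjusted p = 0.0662 and 0.0728), and as SLC1A5 averaged 1 FPKM or more at the 8-cell stage alone, it was a member only through the group in which it was high.

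SLC3A2 (4F2hc) is the heavy chain that brings light chains of the SLC7 family to the cell surface. It was at 39.2, 32.8 and 60.2 FPKM in MII, 7.36, 18.5 and 10.3 FPKM in the 4-cell and 42.3, 8.57 and 11.3 FPKM in the 8-cell libraries. All 4-cell libraries lay below all MII libraries (log2 fold change -1.83, SE 0.54, limma with Benjamini-Hochberg, adjusted p = 0.0300), and 2 of the 3 8-cell libraries did. Its 8-cell log2 fold change was -1.34 with all libraries (adjusted p = 0.0799) and -2.01 without 8-cell replicate 1 (adjusted p = 0.00255). Of its light chains, SLC7A7 was called higher at the 8-cell stage (log2 fold change 1.28), and SLC7A5, SLC7A6, SLC7A8 and SLC7A11 were not called at either stage, with 8-cell log2 fold changes of 0.10, 0.92, 0.36 and 0.93. The lysosomal histidine and peptide transporter SLC15A4 behaved like SLC3A2, at 18.3, 19.2 and 18.9 FPKM in MII, 4.62, 8.44 and 2.94 FPKM in the 4-cell and 25.4, 3.64 and 5.88 FPKM in the 8-cell libraries. The 4-cell falls of both depended on single libraries: without MII replicate 1 or 3 or 4-cell replicate 1 or 3 the adjusted p was 0.0731 to 0.107 for SLC3A2, and without these, MII replicate 2 or 8-cell replicate 3 it was 0.0586 to 0.147 for SLC15A4.

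The falls at the 8-cell stage were the most affected by 8-cell replicate 1. Leaving it out added falls of SLC3A2, SLC15A4, SLC16A11, SLC10A3, SLC39A1, SLC45A4, the riboflavin transporter SLC52A2 and the mitochondrial aspartate-glutamate carrier SLC25A13, with log2 fold changes from -1.05 to -2.01, and ended none. SLC52A2 was at 3.53, 3.48 and 3.06 FPKM in MII, 0.502, 0.970 and 0.454 FPKM in the 4-cell and 5.16, 0.0846 and 0.245 FPKM in the 8-cell libraries. The same change added rises of SLC25A16, SLC36A4, SLC38A6 and SLC7A6OS and ended those of SLC9B2 and SLC40A1. With that library left out, SLC16A11 and SLC52A2 averaged 1 FPKM or more in MII alone, so the rule that chose members favoured their falls.

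Of 27 mitochondrial carriers, 3 were called higher in 4-cell and 7 in 8-cell embryos, and 1 was called lower in the latter. Under the other scalings 1 was higher and 2 lower in 4-cell embryos, and 4 to 5 higher and 2 lower in 8-cell embryos. As deposited, 11.1% and 25.9% were higher, where 15.4% and 18.4% of all genes were. SLC25A36, a carrier of pyrimidine nucleotides, was at 4.08, 6.09 and 3.91 FPKM in MII, 20.0, 15.8 and 14.5 FPKM in the 4-cell and 14.4, 30.4 and 18.1 FPKM in the 8-cell libraries, and rose at both stages (log2 fold changes 1.65 and 1.90). SLC25A51 went from 68.1 ± 5.04 to 102 ± 2.26 and 146 ± 4.64 FPKM (SD, n = 3) and was called at the 8-cell stage. SLC25A26 went from 68.4 ± 16.8 to 143 ± 13.98 and 119 ± 7.53 FPKM and was called at the 4-cell stage (log2 fold change 1.07, but 0.91 without MII replicate 1 and 0.99 without 4-cell replicate 3).

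The ADP/ATP carriers, which exchange cytosolic ADP for mitochondrial ATP, moved in different directions. SLC25A4 (ANT1) rose at the 8-cell stage from 1.22, 3.92 and 1.72 FPKM to 17.6, 7.73 and 9.08 FPKM (log2 fold change 1.93, or 1.60 without 8-cell replicate 1). SLC25A31 (ANT4), known from germ cells, fell from 6.86, 8.61 and 4.75 FPKM to 2.49, 3.86 and 1.91 FPKM (log2 fold change -1.05), though without MII replicate 1, MII replicate 2 or 8-cell replicate 3 its adjusted p was 0.0682 to 0.0768. SLC25A5 (ANT2) was at 7.24 ± 3.17 FPKM in MII and 3.83 ± 1.53 FPKM at the 8-cell stage and was not called. These genes are close copies of one another, and only uniquely placed reads were kept, so their levels are uncertain.

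Of 24 carriers of inorganic ions, 2 were called higher in 4-cell and 5 in 8-cell embryos, and none lower. These were 8.33% and 20.8% of the class, against 15.4% and 18.4% of all genes, and under the other scalings 0 to 2 and 3 were higher, with 0 to 1 lower in 8-cell embryos. The sodium bicarbonate cotransporter SLC4A4 (log2 fold changes 1.42 and 1.75) and the phosphate transporter SLC17A1 (1.40 and 1.78) rose at both stages. The sodium calcium exchanger SLC8A1 (NCX1) went from 10.5 ± 1.95 to 27.0 ± 2.04 FPKM at the 8-cell stage (SD, n = 3). The most abundant of the class, the phosphate transporter SLC20A1 and the chloride cotransporter SLC12A1, were not called, at MII means of 43.8 and 17.3 FPKM and 8-cell means of 36.3 and 18.8 FPKM. The bicarbonate cotransporter SLC4A7, a regulator of cell pH, was not called in either comparison.

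Among 7 nucleotide sugar carriers, SLC35D2 and SLC35A3, both known to carry UDP-N-acetylglucosamine, were called in opposite directions at the 8-cell stage. SLC35D2 went from 1.62, 3.22 and 2.19 FPKM in MII to 5.40, 21.7 and 23.9 FPKM in the 8-cell libraries (log2 fold change 2.23), and the call was lost when MII replicate 1 (adjusted p = 0.0516) or 8-cell replicate 3 (0.0563) was left out. SLC35A3 fell from 5.18, 4.84 and 4.38 FPKM through 2.41, 2.97 and 2.08 FPKM to 0.568, 0.548 and 1.59 FPKM, 3 groups that did not overlap (8-cell log2 fold change -1.65, SE 0.26). SLC35D1 and the CMP-sialic acid carrier SLC35A1 were not called at either stage. As deposited, none of the 7 carriers of vitamins and nucleosides was called with all libraries, while the other scalings called 1 to 2 lower in 4-cell and 0 to 1 lower in 8-cell embryos. The thiamine transporter SLC19A2 went from 30.0 ± 1.42 to 51.1 ± 8.09 and 32.8 ± 4.58 FPKM, and the vitamin C transporter SLC23A2 from 7.06 ± 0.170 to 10.98 ± 1.17 and 11.9 ± 1.40 FPKM (SD, n = 3), both below 2-fold.

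In the remaining class, SLC46A3, a lysosomal transporter, rose at both stages (1.37 ± 0.440, 6.87 ± 2.32 and 13.6 ± 3.08 FPKM, SD, n = 3, log2 fold changes 1.70 and 2.62). SLC35A5 went from 37.9 ± 2.83 to 93.8 ± 4.49 FPKM in 4-cell and 91.5 ± 1.66 FPKM in 8-cell embryos. SLC7A6OS, at 38.0 to 74.6 FPKM by group mean, is not a transporter and takes its name from lying opposite SLC7A6. The RefSeq gene table lists the pair as neighbours that do not overlap, but Smart-seq2 does not mark strand, so reads running past the end of either gene cannot be told apart.

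**Figure D4:**
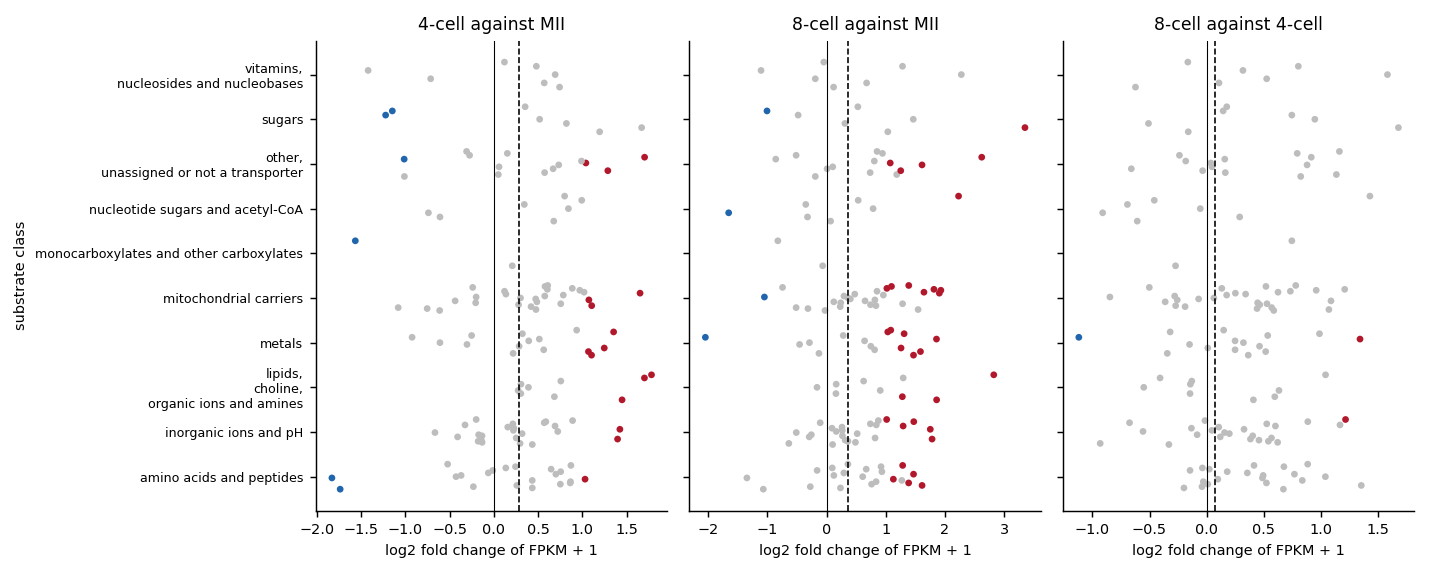
Log2 fold change of FPKM + 1 of each member by substrate class in the 3 stage comparisons; red points were called higher, blue points lower and grey points were not called. The dashed line is the median of all genes tested (0.28, 0.37 and 0.07) and the solid line is 0.

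Between the 4-cell and 8-cell stages few members were called: 2 higher (1.504%) and 1 lower (0.752%), against 2.27% and 3.18% of all genes. SLC39A12 rose (log2 fold change 1.34, SE 0.25, adjusted p = 0.0151 by limma with Benjamini-Hochberg). Without 4-cell replicate 1 its adjusted p was 0.0584. SLC9B2, a sodium-proton exchanger, was at 6.44, 7.63 and 7.62 FPKM in the 4-cell and 20.1, 16.0 and 18.3 FPKM in the 8-cell libraries (log2 fold change 1.21). Its MII values of 10.1, 8.03 and 7.33 FPKM overlapped those of the 4-cell stage. SLC39A14 fell (log2 fold change -1.12), with adjusted p 0.0509 to 0.0888 without MII replicate 1, 4-cell replicate 1 or 2, or 8-cell replicate 3, and it was below 2-fold when the libraries were scaled to 1 sum of FPKM. Leaving out 8-cell replicate 1 added rises of SLC35D2 and SLC39A8 (log2 fold changes 2.06 and 1.06). The median log2 fold change of the members was 0.25 and that of all genes 0.07.

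Against the NC siRNA libraries, 116 of the 133 members averaged at least 1 FPKM over the 4 injected libraries and could be tested. The rule that chose the members used none of these libraries. None of the 116 was called higher with limma and 2 (1.72%) were called lower, against 2.46% and 6.39% of the 10297 genes tested. At an unadjusted p under 0.05, 15 members (12.9%) were higher and 3 (2.59%) lower, against 12.7% and 17.1% of all genes. By the threshold of an unadjusted p under 0.05 with more than 2-fold, 8 members were higher and 3 lower, against 9.6% and 14.5% of all genes. The median log2 fold change of the members was 0.35 (range -2.27 to 1.48), that of all genes was 0.03, and 79 of the 116 members lay above the latter. Summed oocyte and embryo markers were at 2050 to 3050 FPKM in the NC siRNA and 4250 to 4450 FPKM in the YTHDF2 siRNA libraries. In the same order, cumulus markers were at 61.3 to 62.6 and 65.0 to 79.5 FPKM, sperm markers at 13.65 to 15.47 and 9.26 to 32.2 FPKM, and blood markers at 6.08 to 10.9 and 1.81 to 2.24 FPKM. The part of these in the results was not tested.

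The 2 members called lower were both among those with high NC siRNA levels. The glutamine transporter SLC1A5 was at 240 and 260 FPKM in the NC siRNA and 130 and 56.7 FPKM in the YTHDF2 siRNA libraries (log2 fold change -1.53, SE 0.43, limma with Benjamini-Hochberg, adjusted p = 0.0369). The sodium phosphate cotransporter SLC34A2 was at 84.4 and 41.6 FPKM against 20.4 and 6.25 FPKM (log2 fold change -2.27, SE 0.51, adjusted p = 0.0152). Neither pair of groups overlapped, but both calls were lost without NC siRNA replicate 1 (adjusted p = 0.0691 and 0.0674) or YTHDF2 siRNA replicate 2 (0.317 and 0.0823), and that of SLC1A5 also without NC siRNA replicate 2 (0.135). Both were also lost with quantile normalization (0.0908 and 0.0502) and with no filter on low genes (0.161 and 0.144). That of SLC1A5 was lost as well with median-ratio scaling (0.0687) and with replicate number as a block (0.0814). The cation chloride cotransporter SLC12A2 (NKCC1) was at 41.1 and 51.8 FPKM against 20.0 and 19.4 FPKM and missed the adjusted threshold (log2 fold change -1.19, adjusted p = 0.0727).

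The 8 members that passed only the unadjusted threshold upwards were SLC25A31 (log2 fold change 1.48), SLC9B2 (1.42), SLC35A1 (1.38), SLC29A1 (1.15), SLC38A9 (1.15), SLC17A5 (1.14), SLC15A4 (1.13) and SLC5A1 (1.02), with adjusted p from 0.0515 to 0.130. SLC25A31 was at 2.38 and 2.81 FPKM in the NC siRNA and 6.10 and 13.0 FPKM in the YTHDF2 siRNA libraries. SLC9B2 was at 6.15 and 3.15 FPKM against 12.1 and 15.3 FPKM. Without YTHDF2 siRNA replicate 1, 5 members were called higher (SLC25A31, SLC35A1, SLC17A5, SLC38A9 and SLC9B2) and 4 lower (SLC1A5, SLC34A2, SLC16A1 and SLC31A1), against 4.77% and 10.4% of all genes in that fit, on the assumption that the lone library varies like the NC siRNA pair. The members' median log2 fold change exceeded that of all genes by 0.29 without NC siRNA replicate 1 and 0.29 without NC siRNA replicate 2. It did so by 0.44 without YTHDF2 siRNA replicate 1 and 0.16 without YTHDF2 siRNA replicate 2.

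**Figure D5:**
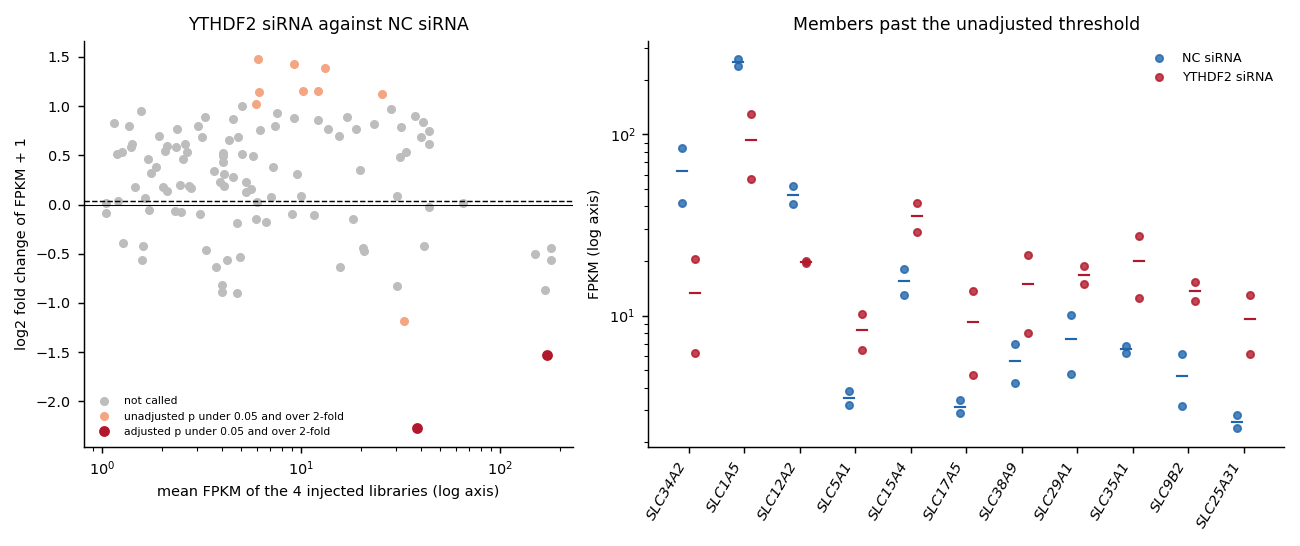
Left, log2 fold change of FPKM + 1 between YTHDF2 siRNA and NC siRNA against mean FPKM (log axis) for the 116 members tested, with the all-gene median dashed at 0.03; right, FPKM (log axis) of the 11 members past the unadjusted threshold in each of the 2 libraries per group, with means as bars. Only SLC1A5 and SLC34A2 also passed the adjusted threshold.

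In the knockdown 82 of the 116 tested members had a log2 fold change above 0, among them 53 of the 76 that had been called at neither stage. The median of all genes tested was 0.03 and that of the tested members 0.35. A value above 0 was thus the common case among tested members, whatever their stage calls. Of the 13 members called higher at both stages, all were tested after injection, 10 had a log2 fold change above 0 and their median was 0.35, the same as that of all members tested. Of the 17 tested members called higher at the 8-cell stage alone, 10 lay above 0, and SLC1A5 was the one called. All 5 members lower at the 4-cell stage alone (SLC3A2, SLC15A4, SLC5A1, SLC16A11 and SLC45A4) lay above 0, with log2 fold changes of 0.70, 1.13, 1.02, 0.04 and 0.77, as did the 2 tested members lower at the 8-cell stage alone, SLC39A14 (0.65) and SLC25A31 (1.48), and none was called. The 4-cell fall of SLC45A4 had been lost, at adjusted p 0.0549 to 0.126, without MII replicate 1 or 3, 4-cell replicate 1 or 3 or 8-cell replicate 3.

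Levels in the untreated 8-cell and NC siRNA libraries, which were normalized apart and are set side by side without a test, differed widely for some members. In 8 members (6.02%) each NC siRNA library was over 4 times the highest untreated 8-cell library, against 9.37% of the 9074 genes tested at the stages: SLC1A5, SLC25A33, SLC31A1, SLC34A2, SLC35B1, SLC16A1, SLC25A5 and SLC5A6. SLC1A5 was at 6.22, 3.51 and 1.32 FPKM in the untreated 8-cell and 240 and 260 FPKM in the NC siRNA libraries. SLC31A1 was at 8.91, 9.22 and 6.76 FPKM against 212 and 211 FPKM, and SLC25A33, a mitochondrial pyrimidine nucleotide carrier, at 13.0, 13.3 and 5.73 FPKM against 163 and 269 FPKM. In 14 members (10.5%) each untreated 8-cell library was over 4 times both NC siRNA libraries, against 6.27% of these genes, among them SLC39A12 (means 253 and 26.4 FPKM), SLC25A51 (146 and 16.2 FPKM) and SLC38A9 (49.0 and 5.59 FPKM). SLC2A3, the largest rise at the stages, was at 170 and 182 FPKM in the NC siRNA and 132 and 115 FPKM in the YTHDF2 siRNA libraries. Experiment, processing and injection cannot be told apart here.

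Carriers and helper proteins without an SLC name were read beside the members. Of a list of 51, 28 were tested at the stages and 36 after injection. At the 4-cell stage 7 were called higher and 4 lower, at the 8-cell stage 8 and 1, and in the knockdown 1 of each, where the shares of all genes were 15.4% and 5.1%, 18.4% and 7.59%, and 2.46% and 6.39%. The mitochondrial pyruvate carrier subunit MPC1 was called higher at both stages (10.2, 17.1 and 16.7 FPKM in MII, 27.2, 42.9 and 30.8 FPKM in 4-cell and 31.2, 24.0 and 39.3 FPKM in 8-cell embryos). It was also the one called higher in the knockdown, from 18.6 and 9.56 FPKM to 36.7 and 51.6 FPKM (log2 fold change 1.63). Its partner MPC2 was called lower at the 4-cell stage (log2 fold change -1.19) and was not called at the 8-cell stage (-0.75) or in the knockdown (0.82). The lysosomal protein MFSD8 was called lower in the knockdown (log2 fold change -1.84) and between the 4-cell and 8-cell stages (-1.24). The sodium pump subunit ATP1B3 (log2 fold changes 1.11 and 1.03), the outer membrane channel VDAC3 (1.52 and 1.94), MTCH2 (1.53 and 2.02) and the magnesium proteins NIPA2 (1.46 and 1.60) and CNNM2 (1.40 and 1.67) were called higher than MII at both stages, as was MFSD14A (1.54 and 1.35). Others of the list were called lower, namely MPC2, the pump subunit ATP1B1 (-1.03), the channel VDAC1 (-1.23) and TMEM163 (-1.38) at the 4-cell stage and TMEM165 (-1.28) at the 8-cell stage. VDAC3 varied within MII, at 7.10, 25.9 and 5.84 FPKM. Calls of this list are given on the deposited scale with all libraries only. How they hold under other scalings or without single libraries was not read.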

How the data were processed

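Embryos were lysed directly and sequenced by Smart-seq2. Per the labels and the study's methods, reads were aligned with HISAT2 to the goat genome ARS1, uniquely mapped reads were counted per gene with HTSeq, and the authors converted counts to FPKM. The 5 deposited FPKM tables were used as deposited (13 libraries, no column of other samples). Names listed once in all 5 tables were kept. No count test was run: limma (3.58.1, R 4.3.3) was fitted on log2(FPKM + 1) with a mean-variance trend to genes averaging 1 FPKM or more across the fitted libraries, in 1 fit of the 9 untreated and 1 of the 4 injected libraries, with Benjamini-Hochberg adjustment over all genes fitted. A fold change on this scale understates that of low genes. Scripts were tested on simulated data.

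For 17896 of 17897 genes above 0, untreated values were whole multiples of 1 fragment (tolerance 0.02), from which fragments were recovered. Injected values have 2 decimals and their depth is unknown. The number of libraries limits precision.

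All 133 names matched the RefSeq gene table (ARS1.2), used for names and for which genes are neighbours. Substrate classes follow textbook family assignments. The members and lists were chosen with earlier results of these data known. Named were, per comparison, up to 5 largest called rises and falls without overlap, the 2 highest members per class, members of a list of 61 known transporters (41 were members), those at the threshold and, chosen after their values were seen, those described beside 8-cell replicate 1, the knockdown and the untreated levels. SLC4A4, SLC17A1, SLC8A1, SLC30A5, SLC7A7 and SLC7A8 were also named, outside this rule. No pairing by replicate number was seen in the untreated groups, and 2 libraries per group cannot show it in the injected ones. Alternatives tried were other thresholds, pseudocount, filters, 4 scalings, a replicate block and leaving out each library.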

Additional observations from a re-analysis of the deposited data

Results flagged for a closer look

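SLC names outside the members were read in the injected libraries, which the rule did not use. SLC25A3, the mitochondrial phosphate carrier, averaged 0.775 FPKM over the untreated libraries and 198 FPKM in the NC siRNA and 45.2 FPKM in the YTHDF2 siRNA libraries. The 4 values were 166, 231, 64.9 and 25.4 FPKM, with a log2 fold change of -2.24 (SE 0.45, limma with Benjamini-Hochberg, adjusted p = 0.00908). SLC30A6, a zinc carrier, averaged 0.185 FPKM untreated and 10.7 FPKM in the NC siRNA libraries, and was at 1.89 and 0.98 FPKM in the YTHDF2 siRNA libraries. Both stood out because they were at 10 FPKM or more in an injected group while under 1 FPKM in the untreated libraries. In all, 27 of the 181 SLC names below the threshold averaged at least 1 FPKM over the injected libraries. The injected libraries were normalized apart from the untreated ones, and no explanation was tested.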

How the results depend on the processing

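The counts of called members moved with the scale and with single libraries. At the 4-cell stage against MII (16 higher and 6 lower as reported) they were 3 and 12 when scaled to 1 sum of FPKM or to fragments on shared genes (the latter chosen after seeing the data), 8 and 10 by median ratio and 7 and 10 by quantile. At the 8-cell stage against MII (33 and 4) they were 19 and 8, 17 and 8, 20 and 9, and 20 and 11, in the order sum, fragments, median ratio and quantile. The all-gene median moved from 0.28 to between -0.13 and 0.06 at the 4-cell stage and from 0.37 to between -0.03 and 0.06 at the 8-cell stage, and the higher share of all calls from 75.1% to between 36.2% and 52.6% and from 70.8% to between 41.4% and 49.7%. Between 4-cell and 8-cell (2 and 1), the sum left 0 lower, against 1.93% of all genes. In the knockdown (0 and 2), the sum gave 1 higher, median ratio 1 lower and quantile 0 lower, against 2.46%, 3.92% and 3.10% of all genes. With no filter 2 were lower at the 4-cell stage and 0 in the knockdown, where no gene at all was called. A filter at 5 FPKM, under which fewer members were tested, gave 3 and 2 lower against MII and 2 higher in the knockdown. A pseudocount of 0.1 gave 2 lower between 4-cell and 8-cell. With an unadjusted p and 2-fold, 7 were higher between 4-cell and 8-cell and 8 in the knockdown, and with an adjusted p alone 27 were higher at the 4-cell stage and 4 higher and 3 lower between 4-cell and 8-cell.

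Leaving out 1 untreated library gave 12 to 18 higher and 1 to 8 lower at the 4-cell stage, 27 to 41 and 2 to 12 at the 8-cell stage, and 1 to 4 and 0 to 2 between them. The shares of all genes in those fits were 12.4% to 17.2% and 3.30% to 6.33%, 15.2% to 20.2% and 6.27% to 9.76%, and 0.860% to 2.16% and 1.51% to 3.23%. The lower counts that moved by over 1.5 times were 1 (without MII replicate 1, MII replicate 3 or 4-cell replicate 3) and 3 (4-cell replicate 1) at the 4-cell stage, 12 (8-cell replicate 1) and 2 (MII replicate 1 or 8-cell replicate 3) at the 8-cell stage. Without 8-cell replicate 1, 4 were higher between 4-cell and 8-cell. Leaving out some library ended the calls of 12 of 22, 9 of 37, 2 of 3 and 2 of 2 members. With the replicate block, 3 were lower at the 4-cell stage and 1 in the knockdown. In the untreated groups deviations of same-numbered libraries correlated at -0.51 to 0.20 and those of other-numbered ones at -0.37 to 0.51. With 2 libraries per injected group the values are forced to be equal and opposite (-0.15 and 0.15), so they cannot show pairing. In the knockdown the crossed pairing gave 4 higher and 3 lower, against 6.54% and 12.1% of all genes. No called value reversed under any setting. The causes of these moves were not tested.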
